A study of Atriplex lentiformis with 8 samples.

Results

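The genes described here make the backbone of sphingolipids in leaves of quailbush (Atriplex lentiformis), a desert shrub that tolerates salt and uses C4 photosynthesis. They are 7 Arabidopsis genes, namely LCB1, LCB2a, LOH1, LOH2, FAH1, FAH2 and SBH1. An assembled Atriplex transcript was assigned to one of them where that gene's protein was its best BLASTx match in the TAIR10 set. Of the 7 genes, 4 had such a transcript, out of 12468 matched loci in the table, and together they had 6 of its 46492 transcripts. No transcript had LOH1, FAH2 or SBH1 as its best match, which does not show that the plant lacks these enzymes, because close Arabidopsis paralogs can take the match.

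Leaf RNA was sequenced in 8 libraries, 4 described as biological replicates at each of 2 growth temperatures. The cool group was kept at 23 °C in the day and 18 °C in the night, the hot group at 43 °C in the day and 30 °C in the night in a separate chamber, so that chamber and temperature cannot be told apart. A photoperiod of 16 hours, a light intensity of 120 micro Einstein and a time of 8 weeks were common to both groups. The cool leaves are labelled as having a 16:3 lipid phenotype, and the hot ones as 18:3.

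As background, sphingolipids begin in the endoplasmic reticulum when serine palmitoyltransferase, a heterodimer of LCB1 and LCB2, joins serine to palmitoyl-CoA. The product is reduced to a sphingoid base, ceramide synthases of the LOH family attach a fatty acid to it, and hydroxylases add hydroxyl groups to the base (SBH) or to the fatty acid (FAH). Ceramides then receive a sugar or an inositol phosphate head group, and the finished lipids are abundant in the plasma membrane and in the membrane of the vacuole.

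The values are the authors' mean FPKM, by definition fragments scaled by transcript length and library size, with 1 mean per temperature. How the authors scaled the libraries is not stated in the sources used here. Values of single libraries were not analysed here, so the means carry no SD, depth per library is unknown and no test between libraries was run. The words rose and fell are used for transcripts with an FDR, here called the adjusted p, below 0.05 at 43 °C against 23 °C in the table the authors deposited. Whether those p-values rest on the spread between plants is not stated in the sources used here. As a guide to precision, the members' log2 changes are given with a 95% interval, back-calculated from the authors' p as if from a normal test, which is an approximation.

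The subunit gene LCB1 fell most among the members, LCB2a fell less, and the ceramide synthase gene LOH2 and 1 of 2 transcripts of the fatty acid hydroxylase gene FAH1 rose. In all, 2 of the 6 transcripts rose, 2 fell and 2 did not pass. Among all deposited transcripts 38.5% passed, 20.7% as higher and 17.8% as lower. Members were mostly abundant, and abundant transcripts passed more often: 5 of the 6 lay in the most abundant 20% of transcripts by mean FPKM, of which 67.1% passed (26.3% as higher and 40.8% as lower), and 4 of these 5 did. By the most abundant transcript of each gene, 2 genes rose and 2 fell, where 57.7% of the 12468 matched loci passed, 26.9% as higher and 30.9% as lower. The share of members that passed was thus not far from that of transcripts as abundant as they are. The median log2 change was -0.29 over the 6 transcripts and 0.10 over all transcripts, and -0.12 over that most abundant 20%. At an adjusted p threshold of 0.01, 29.9% of all transcripts passed. With the FPKM totals of both temperatures made equal, an estimated 40.7% passed, 27.9% as higher and 12.9% as lower, and 38.5% after centring on the median.

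**Figure D1:**
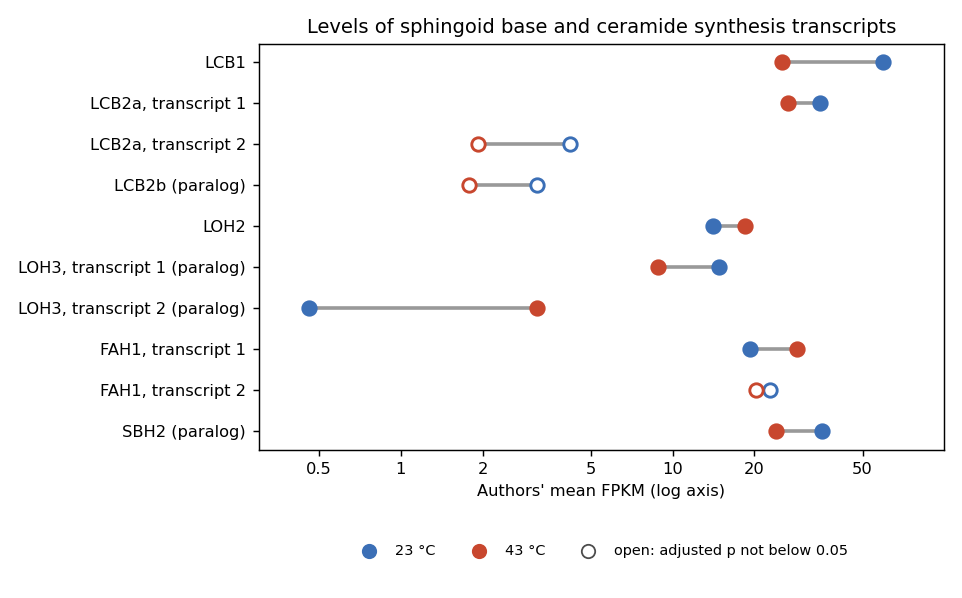
Authors' mean FPKM (log axis) at 23 °C and 43 °C of the 6 member transcripts and of transcripts of the close paralogs LCB2b, LOH3 and SBH2 with a mean of at least 1 FPKM; open symbols did not pass the authors' adjusted p of 0.05. LCB1 falls from the highest level shown, 59.3 FPKM, to 25.2 FPKM, while LOH2 and FAH1 transcript 1 move to the right.

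LCB1 (AT4G36480), the subunit that does not bind the cofactor but is needed for an active enzyme, had a single transcript of 2316 bases (comp42678_c0_seq1). Its level went from 59.3 FPKM at 23 °C to 25.2 FPKM at 43 °C, so the 23 °C level was 2.35 times the 43 °C level. The authors' deposited table lists a log2 change of -1.24 (interval -1.41 to -1.08) and an adjusted p of 2.07e-47. Within the most abundant 10% of transcripts, this change lay at percentile 9.51 from the lowest. In bulk leaf RNA, fewer cells of a type that expresses a gene and less of its RNA per cell cannot be told apart.

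LCB2a (AT5G23670), the subunit with the catalytic cofactor site, had 2 transcripts of very different length. The longer one, Contig1123 with 2166 bases, had 34.7 FPKM at 23 °C and 26.6 FPKM at 43 °C. It fell, with a log2 change of -0.39 (interval -0.57 to -0.21) and adjusted p = 0.00011 as listed in the authors' deposited table. The call did not survive a rescaling: the FPKM values multiplied by transcript length sum to less at 43 °C, and with both totals made equal the change was -0.14 with an approximated adjusted p of 0.23. The shorter one, comp53185_c6_seq2, was a fragment of 303 bases with 4.20 and 1.93 FPKM. The authors' deposited table lists an adjusted p of 0.17 for it, so it did not pass, and its interval was wide, from -2.37 to 0.15. Summed over both, LCB2a went from 38.9 to 28.5 FPKM.

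Arabidopsis has a closely similar second gene for this subunit, LCB2b (AT3G48780), and here its only match was a fragment of 423 bases with an E value of 2.8e-08. That fragment had 3.175 and 1.79 FPKM and did not pass. All transcripts matching either LCB2 gene together had 42.1 FPKM in the cool and 30.3 FPKM in the hot group, which gives a log2 ratio of -0.47. On the FPKM scale, which accounts for length, the ratio of the heterodimer's transcripts differed between the temperatures. LCB1 had 1.71 times the level of the longer LCB2a transcript at 23 °C and 0.946 times its level at 43 °C. Against the sum of all LCB2 transcripts the ratio was 1.41 at 23 °C and 0.83 at 43 °C. The log2 changes of LCB1 and of the longer LCB2a transcript differed by -0.85, and their intervals do not overlap, but the difference itself was not tested. A common rescaling of a temperature does not alter this difference.

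**Figure D2:**
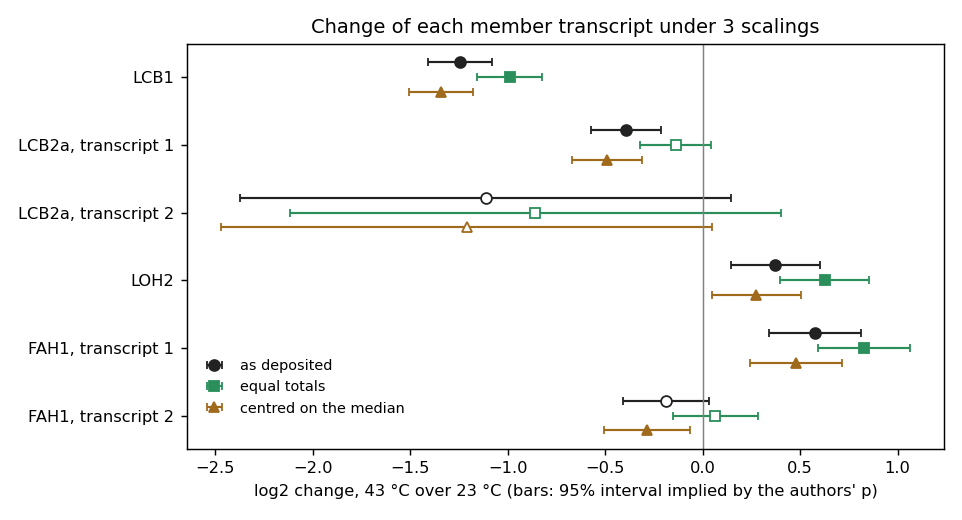
log2 change (43 °C over 23 °C) of the 6 member transcripts as deposited, with equal length-weighted totals and after centring on the median of all transcripts; bars are the 95% intervals implied by the authors' p and open symbols did not pass. LCB1, LOH2 and FAH1 transcript 1 pass in all 3 cases, LCB2a transcript 1 loses its call with equal totals, and FAH1 transcript 2 lies on either side of 0.

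Other genes that form or restrain sphingoid bases moved in both directions. The small subunits ssSPTa and ssSPTb, which stimulate the enzyme and are named here after their values were seen, did not pass by any of their transcripts. The most abundant ssSPTb transcript had 11.7 and 7.435 FPKM (the authors' deposited table lists an adjusted p of 0.058), and was called lower after centring. TSC10A, the reductase of the next step, fell from 12.7 to 9.33 FPKM but did not pass with equal totals. The ORM proteins hold serine palmitoyltransferase in check in plants, and the genes matched to them went opposite ways. ORM1 fell from 23.4 to 15.5 FPKM, with adjusted p = 2.34e-05 and a log2 change of -0.60 listed in the authors' deposited table. ORM2 rose from 11.1 to 17.1 FPKM, and the authors' deposited table lists 0.62 for its log2 change and 0.00031 for its adjusted p. Both kept their direction and their call with equal totals and after centring. Summed over all their transcripts, the pair had 36.55 FPKM in the cool group and 34.8 FPKM in the hot group. Of 7 listed genes for base synthesis and its control 6 were matched, of which 1 rose, 2 fell and 3 did not pass. That is 50% called against 57.7% of all matched loci (26.9% higher and 30.9% lower). The 10 transcripts of these genes included 1 higher and 2 lower, 30% called against 38.5% of all transcripts. The median of their log2 changes was -0.22.

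LOH2 (AT3G19260), the ceramide synthase that in Arabidopsis prefers palmitoyl-CoA, had a single transcript of 1715 bases (comp17862_c0_seq1). Its level was 14.1 FPKM in the cool and 18.4 FPKM in the hot group. The rise was small: the authors' deposited table lists a log2 change of 0.37 (interval 0.14 to 0.60) and an adjusted p of 0.0054. It was 0.63 with equal totals and 0.28 after centring, where the approximated adjusted p of 0.049 lay just inside the threshold.

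LOH1 and LOH3 of Arabidopsis are close paralogs that prefer very-long-chain acyl-CoAs, and all 6 Atriplex transcripts of this kind had LOH3 (AT1G13580) as best match. The most abundant LOH3 transcript, of 2180 bases, fell from 14.8 to 8.84 FPKM, and the authors' deposited table lists -0.75 for its log2 change and 5.96e-07 for its adjusted p. Another one, of 2390 bases, rose from 0.46 to 3.17 FPKM, with adjusted p = 0.012 listed in the authors' deposited table. The other 4 did not pass. The most abundant one made up 84.8% of the summed LOH3 level at 23 °C and 62.1% at 43 °C. The sum over the 6 went from 17.4 to 14.2 FPKM, with a log2 ratio of -0.29, or -0.039 with equal totals. By summed FPKM, the order of the ceramide synthases differed between the temperatures. LOH2 was at 0.81 times the summed LOH3 level at 23 °C and at 1.29 times that level at 43 °C. Their log2 ratios differed by 0.67, a difference that was not tested. By the most abundant transcript of each, the ratio was 0.956 at 23 °C and 2.08 at 43 °C. With FPKM multiplied by transcript length, LOH2 and LOH3 had sums of 24.2 and 37.9 at 23 °C. At 43 °C these sums were nearly equal, at 31.57 and 31.56.

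**Figure D3:**
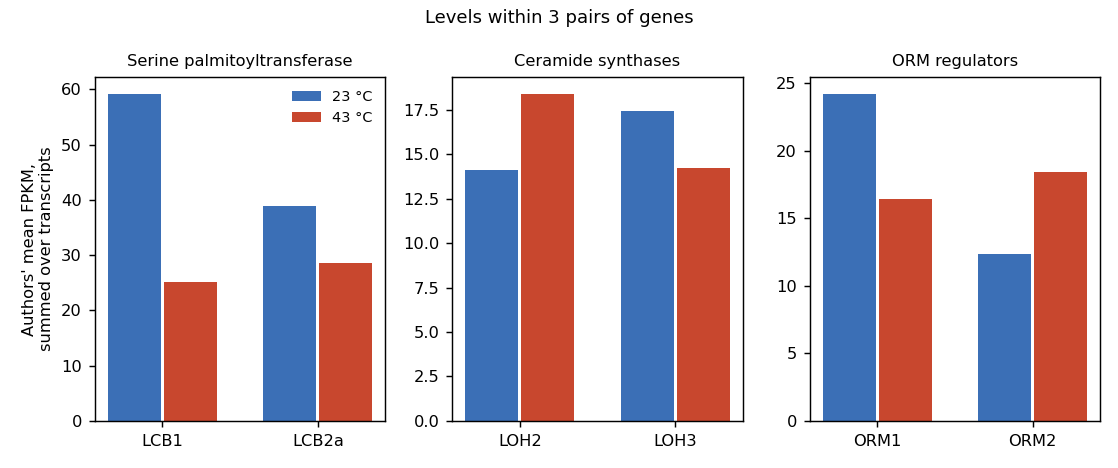
Authors' mean FPKM summed over all transcripts of each gene, at 23 °C and 43 °C, for LCB1 and LCB2a, LOH2 and LOH3, and ORM1 and ORM2; the bars are means without an SD, and the panels have separate axes from 0. In each panel the gene with the higher bar at 23 °C has the lower one at 43 °C. With FPKM multiplied by transcript length, LCB1 and LCB2a (58.3 and 58.2) and LOH2 and LOH3 (31.57 and 31.56) are nearly equal at 43 °C.

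FAH1 (AT2G34770) encodes a hydroxylase that in Arabidopsis adds an alpha-hydroxyl group to the fatty acid of ceramide, and it had 2 transcripts of similar abundance, of which 1 rose and the other did not pass; the difference between them was not tested. Transcript 1, comp55093_c3_seq1 with 1112 bases, had 19.2 FPKM at 23 °C and 28.8 FPKM at 43 °C. It rose, and the authors' deposited table lists a log2 change of 0.57 (interval 0.34 to 0.81) and an adjusted p of 1.25e-05. Transcript 2, comp29078_c0_seq1 with 1370 bases, had 22.9 and 20.2 FPKM and did not pass, with adjusted p = 0.18 listed in the authors' deposited table. Its log2 change of -0.19 turned to 0.065 with equal totals, and was -0.29 with a call as lower after centring. The IDs of these transcripts carry different component numbers, but whether they come from 2 genes was not determined here. Transcript 2 was the more abundant at 23 °C and transcript 1 at 43 °C, where it made up 58.8% of the FAH1 sum against 45.6% at 23 °C. The sum went from 42.1 to 49.0 FPKM. FAH2, the paralog that acts on palmitate in Arabidopsis, had no transcript matched to it, and a best match to FAH1 does not tell the pair apart.

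The hydroxylase of the sphingoid base was represented by SBH2 (AT1G14290), the paralog of SBH1, with 1 transcript of 1660 bases. Its level fell from 35.4 to 24.0 FPKM, where the authors' deposited table lists -0.57 for the log2 change and 1.37e-08 for the adjusted p, and it still passed with equal totals. The FAH1 sum was thus 1.19 times the SBH2 level at 23 °C and 2.04 times that level at 43 °C. Among other enzymes that alter the chains, SLD2, a desaturase of the base, did not pass at 32.7 and 28.7 FPKM. It was called lower after centring. The list of this step had 4 of 6 genes matched, with 2 lower (LOH3 and SBH2), none higher and 2 not passing. That is 50% called against 57.7% of all matched loci (26.9% higher and 30.9% lower). Among the 12 transcripts of the list 1 was higher and 2 were lower, 25% called against 38.5% of all transcripts. The median of their log2 changes was -0.26. Only 5 of the 12 had a mean of at least 1 FPKM.

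By summed level, the order of the members at 23 °C was LCB1 (59.3 FPKM), FAH1 (42.1), LCB2a (38.9) and LOH2 (14.1). At 43 °C it was FAH1 (49.0 FPKM), LCB2a (28.5), LCB1 (25.2) and LOH2 (18.4). On this scale LCB1 went from the first place to the third, and LOH2 stayed last. With FPKM multiplied by transcript length, FAH1, LCB1 and LCB2a were close at 43 °C, at 59.7, 58.3 and 58.2. Without values of single libraries it is unknown whether neighbours in these orders, such as LCB2a and LCB1 at 43 °C, differed by more than the spread between plants.

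**Figure D4:**
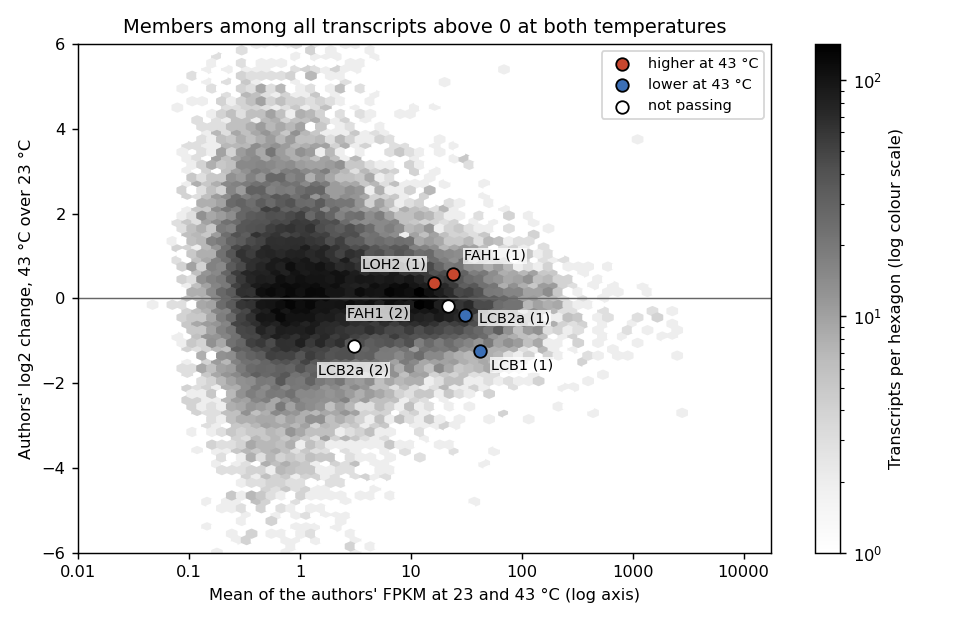
Authors' log2 change (43 °C over 23 °C) against the mean of the 2 FPKM values (log axis) for all transcripts above 0 at both temperatures, shaded by number, with the member transcripts marked and numbered by abundance. The members lie within the cloud, LCB1 towards its lower edge among abundant transcripts.

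Downstream of ceramide, genes for head groups fell or did not pass by their most abundant transcript. IPCS1, which adds the inositol phosphate, did not pass at 31.9 and 29.1 FPKM, but was called lower after centring. IPUT1, which adds the first sugar to that head group, did not pass at 13.8 and 13.6 FPKM. GMT1, a mannosyltransferase of these lipids, had 3 transcripts that disagreed. The most abundant did not pass at 17.3 and 15.7 FPKM, a second rose from 10.2 to 16.5 FPKM and the remaining one fell from 5.54 to 1.06 FPKM. Their sum was 33.1 FPKM in the cool and 33.2 FPKM in the hot group. The genes that fell were GCS, the glucosylceramide synthase (10.4 to 7.33 FPKM, a call lost with equal totals), and GINT1, a glycosyltransferase (17.1 to 9.62 FPKM). They are named here after their values were seen. Of 8 listed genes 6 were matched, 2 of them lower, none higher and 4 not passing. That is 33.3% called against 57.7% of all matched loci (26.9% higher and 30.9% lower). Of the 11 transcripts 1 was higher and 3 were lower, 36.4% called against 38.5% of all transcripts. Their log2 changes had a median of -0.30.

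Among breakdown and signalling genes, 4 of 10 passed by their most abundant transcript, 40% against 57.7% of all matched loci. SPP1, a phosphatase of phosphorylated bases, fell from 32.9 to 21.6 FPKM, for which the authors' deposited table lists a log2 change of -0.61 and an adjusted p of 2.57e-09. NCER1, a neutral ceramidase, rose from 20.8 to 25.3 FPKM but no longer passed once changes were centred. TOD1, an alkaline ceramidase, did not pass at 20.5 and 23.0 FPKM, but was called higher with equal totals. Also lower, and named after their values were seen, were ACD11, a ceramide phosphate transfer protein (20.1 to 13.7 FPKM), and the base kinase LCBK1 (22.2 to 19.1 FPKM), whose log2 change of -0.22 turned to 0.036 with equal totals. Of 14 listed genes 10 were matched, with 1 higher, 3 lower and 6 not passing. Of the 36 transcripts 1 was higher and 4 were lower, 13.9% called against 38.5% of all transcripts. Their median was -0.085 on the log2 scale. These transcripts include 15 of the ceramide kinase gene ACD5, also named after its values were seen, whose most abundant one had 2.73 and 1.395 FPKM. Only 16 of the 36 had a mean of at least 1 FPKM, with 1 higher and 3 lower among them. The share called is thus set against transcripts of unlike abundance.

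The list of the acyl chain elongation core and of electron supply to hydroxylases and desaturases had more genes higher than lower. It was the only one of the 5 lists to do so as deposited and after centring. Whether these genes serve sphingolipids rather than other lipids here was not tested. With equal totals the breakdown list did so too, with an estimated 4 genes higher and 2 lower. CER10, the enoyl reductase of the elongase, fell from 56.0 to 46.9 FPKM, but with equal totals its call was lost. The 3 genes that rose were BI1, an endoplasmic reticulum protein that in Arabidopsis interacts with cytochrome b5 and FAH proteins (88.4 to 118 FPKM), the elongase dehydratase PAS2 (16.9 to 33.1 FPKM) and the ketoacyl reductase KCR1 (18.9 to 27.2 FPKM). PAS2 and KCR1 are named here after their values were seen. The most abundant transcript of CB5E, a cytochrome b5, did not pass at 95.9 and 87.9 FPKM, but was called lower after centring. The other CB5E transcript did not pass as deposited and was called higher with equal totals. Of 10 listed genes 8 were matched, with 3 higher, 1 lower and 4 not passing. That is 50% called against 57.7% of all matched loci (26.9% higher and 30.9% lower). The 20 transcripts included 6 higher and 1 lower, and their median was 0.31 on the log2 scale. Their share called was 35%, against 38.5% of all transcripts (20.7% higher and 17.8% lower). KCR1 gave 3 of the 6, of which the less abundant had 0.245 and 0.1375 FPKM at 23 °C. Of the 11 transcripts with a mean of at least 5 FPKM, 3 were higher and 1 was lower, and no share over all transcripts is given at that floor. Over all 5 lists, 5 genes rose, 10 fell and 19 did not pass, which is 44.1% called against 57.7% of all matched loci. This balance turned with the scaling, to an estimated 10 genes higher and 6 lower with equal totals, and was 4 higher and 14 lower after centring. Of their 89 transcripts 10 rose and 12 fell, 24.7% against 38.5% of all transcripts. A mean of at least 1 FPKM was reached by 54 of the 89. Under equal totals an estimated 19 of the 89 were higher and 8 lower, and after centring 9 and 16. Equal totals add the same 0.25 to every log2 change. The shares over all transcripts moved with it, to an estimated 27.9% higher and 12.9% lower.

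**Figure D5:**
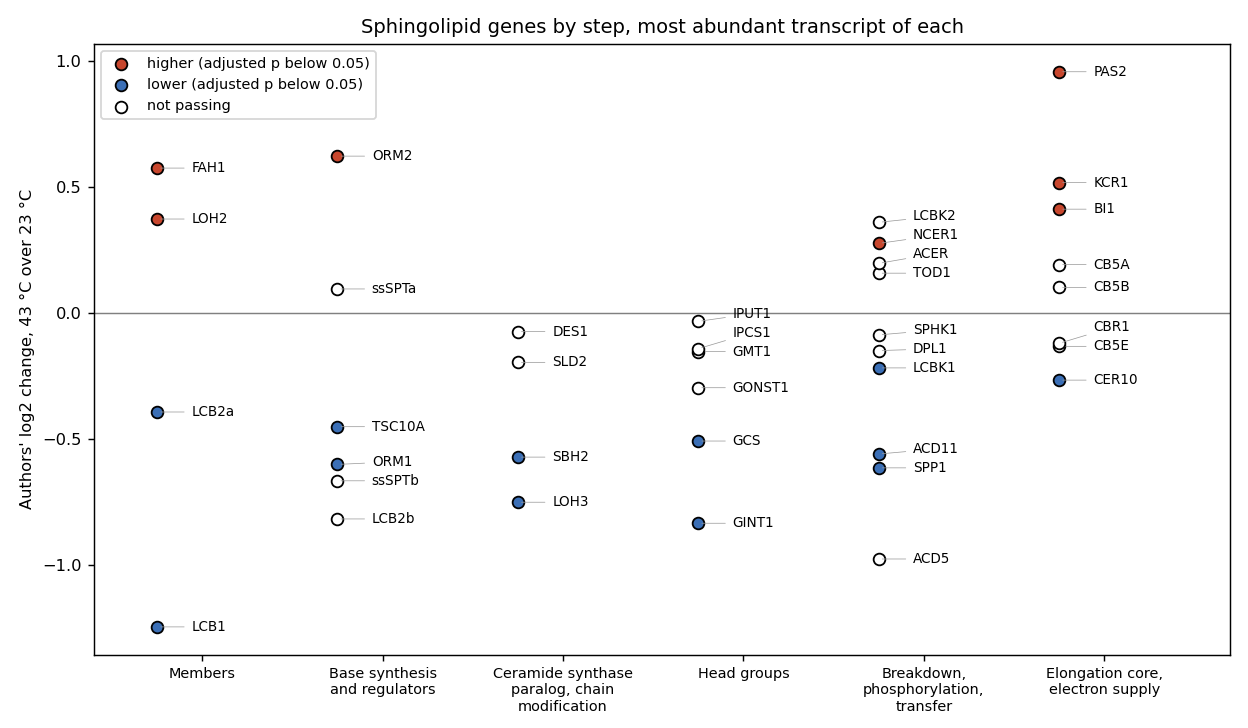
Authors' log2 change (43 °C over 23 °C) of the most abundant transcript of each matched gene, for the members and for the 5 lists of other sphingolipid genes; filled symbols passed the authors' adjusted p of 0.05. LCB1 has the lowest value shown, -1.24, and PAS2 of the elongase the highest, 0.96.

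The leaf RNA also differed in marker genes of cell types. The leaf photosynthesis list had 5 of 7 genes matched, all lower at 43 °C, with summed levels of 30017 and 13984 FPKM. Of 3 markers of dividing cells 2 were matched and both rose, from a sum of 7.24 to 23.4 FPKM. The vascular list had all 3 matched, with the phloem sucrose carrier SUC2 lower (207 to 55.3 FPKM) and the wall genes IRX1 and IRX3 higher. The epidermal marker PDF1, the only one of 3 with a match, rose from 0.80 to 65.9 FPKM. No transcript matched any of 4 floral markers. The part of these shifts in the changes of LCB1, LCB2a, LOH2 and FAH1 was not tested.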

How the data were processed

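Leaf RNA of 8 libraries was summarised by the authors in 1 table of assembled transcripts. Per the file headers, its columns are transcript length, FPKM at each temperature, a log2 fold change, a p-value with its FDR, and the best BLASTx match in TAIR10. The deposited FPKM values all fell on steps of 0.0025, the step that averaging 4 values of 2 decimals gives, and were taken as the authors' means. The deposited FDR matched, to within 3.2e-07, the Benjamini-Hochberg method applied to the p-values of all 46492 transcripts. CASAVA 1.8.2 and Bowtie2 are named in the submitters' processing notes, with no role. For the assembler, the counting tool, the normalization and the test, nothing is stated in the sources used here.

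Groups came from the sample titles. Matches to the members and to 5 lists of sphingolipid genes (45 genes, 34 matched) were made by locus. Members and lists were chosen with earlier results of these data known. Named from each list were the 3 genes with the highest mean FPKM and close paralogs of members, and others are marked in the text. The planned test on single libraries could not be run on means, so calls are the authors' adjusted p below 0.05. Length-weighted FPKM totals were 1084419 at 23 °C and 909555 at 43 °C, and equal totals add 0.25 to each log2 change; the median of all log2 changes was 0.097. Calls after such shifts used the standard error implied by the authors' p under a normal test, a step whose arithmetic was checked on simulated data drawn from a normal distribution, so the normal form itself was not tested. Python 3.11.15, pandas 2.3.3 and scipy 1.17.1 were used.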

Additional observations from a re-analysis of the deposited data

How the results depend on the processing

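No paired analysis was possible because the table holds 1 mean per temperature, and for the same reason no replicate could be left out. With equal totals, 1 member transcript was lower in place of 2, the log2 change of LCB2a transcript 1 was -0.14 without a call, and that of FAH1 transcript 2 was 0.065; after centring the latter was -0.29 with a call. Summed per gene, equal totals gave log2 ratios of -0.98 for LCB1, -0.19 for LCB2a, 0.64 for LOH2 and 0.47 for FAH1, and centring gave -1.33, -0.55, 0.28 and 0.12 in the same order; the construction of the shifts sets these moves. The FAH1 ratio was 0.58 by its most abundant transcript against 0.22 summed. A pseudocount of 5 moved LCB1 to -1.09 and LCB2a transcript 2 to -0.41, as an added constant does. Over the 5 lists, 10 of 89 transcripts were higher and 12 lower as deposited, against 6 and 10 at an adjusted p of 0.01. With equal totals 19 of the 89 were higher and 8 lower, and after centring 9 and 16. Among the 37 transcripts with a mean of at least 5 FPKM, 6 were higher and 10 lower. Among the 34 most abundant transcripts, 1 per gene, 5 were higher and 10 lower. Of 88 values recomputed for the members and the summed lists, 71 kept their direction and their side of the threshold or, where no test applied, moved by less than 1 implied standard error, or by at most 1.5 times for a count. Among them were all those with matches at an E value of at most 1e-30. Some of the 71 could not move. Leaving out transcripts listed at 0 removed none, and a floor of 1 FPKM removed none of the 6 member transcripts. LCB1 and LOH2 had 1 transcript each, so choices among transcripts left their sums unchanged. Within that tolerance 3 member transcripts were lower after centring in place of 2. Depth per library is unknown, so short or rare transcripts such as the 303-base LCB2a fragment have wide implied intervals.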

Other observations

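A search of the match descriptions for sphingolipid terms was made after the values of the members had been seen. It found 9 further transcripts outside the lists, of which 3 rose, 3 fell and 3 did not pass. Among all transcripts 20.7% passed as higher and 17.8% as lower. Proteins with a Serinc domain, described in TAIR10 as acting in serine and sphingolipid biosynthesis, accounted for 4 of the 9, with 2 lower and none higher. MEE55 (AT4G13345) fell from 36.5 to 7.47 FPKM, and the authors' deposited table lists -2.30 for its log2 change and 1.77e-119 for its adjusted p. AT1G16180 fell from 89.4 to 47.5 FPKM, and AT3G06170 did not pass at 46.3 and 44.3 FPKM. Both falls also passed with equal totals and after centring. The remaining one, AT2G33205, had only 0.2175 and 0.61 FPKM and did not pass as deposited, but was called higher with equal totals.

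Proteins with a TLC domain, which ceramide synthases also carry, accounted for another 4 transcripts. AT1G35180 rose from 12.0 to 34.3 FPKM, with adjusted p = 4.31e-29 and a log2 change of 1.50 listed in the authors' deposited table. AT4G19645 rose from 8.04 to 13.5 FPKM, while AT1G31300 fell from 15.5 to 10.1 FPKM. AT1G21790 did not pass at 11.7 and 14.2 FPKM, but was called higher with equal totals. A transcript described as of the sphingomyelin synthetase family (AT1G43580) rose from 7.23 to 10.1 FPKM but no longer passed once changes were centred.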
